A study of Mus musculus with 21 samples.

Results

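The genes described here are 36 genes of glucose uptake, glycolysis, lactate handling, pyruvate dehydrogenase control and the response to low oxygen. They were taken as a list of gene symbols and looked up in a table of raw RNA-sequencing read counts per gene, made from mouse pluripotent cells and mouse embryos. All 36 were found among the 33861 genes of the table. The rule names the genes and sets no threshold on a measured value, but the list was drawn up with earlier results of these data known.

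Glycolysis turns glucose into pyruvate in the cytosol. Glucose enters through facilitative transporters (Slc2a1, Slc2a3), is phosphorylated by hexokinases (Hk1, Hk2), and is committed to breakdown by phosphofructokinase (Pfkl, Pfkm, Pfkp). Pyruvate is then reduced to lactate and exported through monocarboxylate transporters, or oxidised in mitochondria by the pyruvate dehydrogenase complex, which the kinases Pdk1 to Pdk4 inhibit. Hif1a encodes the oxygen-regulated subunit of the hypoxia-inducible factor (HIF). Its protein is marked for destruction by the prolyl hydroxylases Egln1 and Egln3 when oxygen is present, and the stabilised factor raises transcription of many glycolytic genes and of Vegfa, Bnip3, Ankrd37, P4ha1 and Egln3 itself. The postimplantation epiblast and the cells derived from it are known for a high rate of glycolysis. HIF activity is set largely at the protein level, which RNA counts do not show.

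The series holds 21 samples in 6 groups: 12 cultured samples of 1000 cells each and 9 epiblasts collected one embryo at a time. FS cells, formative stem cells by their label, were grown in a medium labelled A3XR and came from 2 lines, of which the first was sampled at passages 10, 11 and 18 and the second at passages 12, 13 and 16. The cells labelled AF and AFX are epiblast stem cells (EpiSCs) of E14, a mouse embryonic stem cell line, grown in media labelled AF and AFX, each at passages 14, 15 and 16. The epiblasts are 3 each of embryonic days 5.0, 5.5 and 6.0 (E5.0 embryos 1, 2 and 4, E5.5 and E6.0 embryos 1 to 3), and another label field gives day 6.5 for the oldest. No genotype, strain or treatment beyond the medium is given. The passages of a line are not independent derivations, so p-values among cultured groups measure the spread between passages of 3 lines in all, and line and medium differ together between FS and the E14 cells. Comparisons of cultured cells with epiblasts, FS against E5.5 included, also count passages as replicates. There culture differs together with collection, of 1000 cells or of 1 embryo at a time. In bulk samples such as these, fewer cells of a type and less RNA per cell cannot be told apart.

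Total counts ran from 5827093 to 15916800 per sample, and the 36 genes together held 0.889% to 1.48% of them. Ribosomal RNA-like loci took 19.97% to 31.7%. All 6 epiblast markers looked up (Pou5f1, Otx2, Sox2, Utf1, Fgf5 and Dnmt3b) had counts in every group and summed to 1133 to 2793 CPM in culture and 3733 to 6976 CPM in epiblasts. Dnmt3b makes up most of that sum, with group means from 786 CPM in AF to 5195 at E6.0, while Fgf5 was higher in AF, at 136 CPM, than at any stage. The 12 visceral endoderm markers summed to 302 to 905 CPM (the count relative to a library size adjusted by the trimmed mean of M-values, TMM) at E5.0, 42.6 to 83.5 at E5.5, 24.95 to 34.6 at E6.0 and 6.46 to 29.1 in culture, and at E5.0 all 12 had counts. Cubn held the largest part at E5.0, with a mean of 377 CPM. Rbp4 went the other way, with means of 0.486 CPM at E5.0 and 1.76 to 2.07 in the cultured groups, and Spink1 averaged 1.65 at E5.0 and 4.02 in AF. The 9 feeder fibroblast markers summed to 225 to 271 CPM in AF, 32.0 to 56.2 in AFX, 19.7 to 51.3 in FS and 10.1 to 23.5 in epiblasts, with counts for all 9 in AF. The collagens Col1a1, Col3a1 and Col1a2 held most of the AF sum (means of 92.7, 78.4 and 57.4 CPM). Thy1 was lower in AF, at 2.14 CPM, than in any other group, and Dcn was higher at E5.0 (7.56) than in AF (3.55). The 9 extraembryonic ectoderm markers summed to 33.1 to 49.4 CPM in AF, 17.6 to 24.5 in AFX, 16.4 to 23.4 in FS and 24.8 to 52.7 in epiblasts. Ets2 held a large part of these sums, with means of 21.1 CPM in AF and 15.2 in FS. Elf5 and Esx1 had no counts in AF, and Ascl2 averaged 1.16 CPM in AF against 2.51 in FS. The AF sample at passage 15 stood apart for the genes described here, as set out below, and results that rest on it are given with and without it.

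Counts of Gapdh, Eno1, Pgk1 and Pgam1 are uncertain because near-identical copies exist. Gapdh has 89 annotated copies at 95% identity or more over at least 400 bases, 84 of them in the table, and these held 152% of the count of Gapdh itself. The 3 copies of Eno1 in the table held 59.9% of the Eno1 count. Copies of Pgk1 held 7.07% and the copy of Pgam1 7.45%, and for every other gene of the set the copies held under 1%. Pfkp overlaps Pitrm1 and Pdha1 overlaps Map3k15, and the strand setting of the counting is not given in the sources used here.

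The HIF complex binds DNA at sites with the core ACGTG, which is also part of the E-box CACGTG. Promoter windows from 250 bases before to 50 after the transcription start were taken from RefSeq (GRCm38.p6, the assembly also called mm10) and held at least 1 window for 35 of the 36 genes, all but Slc2a3. On either strand, ACGTG occurred in a window of 23 of these 35 genes (65.7%), against 28.7% of the 10825 tested genes with a window and 21.8% of all 27025 genes. CACGTG occurred in 7 of the 35 (20%), against 11.6% of the tested genes and 8.09% of all genes, and GCGTG in 24 (68.6%) against 35.2% of all genes. For GCGTG the share among tested genes was not computed. The 250 bases before the start are shown for 3 genes on which the results below turn and whose window holds no annotated exon: P4ha1, the catalytic subunit of the collagen prolyl hydroxylase, Egln3, and the lactate transporter Slc16a1. Capitals mark ACGTG or its reverse complement CACGT.
P4ha1, chr10:59323046-59323295, plus strand: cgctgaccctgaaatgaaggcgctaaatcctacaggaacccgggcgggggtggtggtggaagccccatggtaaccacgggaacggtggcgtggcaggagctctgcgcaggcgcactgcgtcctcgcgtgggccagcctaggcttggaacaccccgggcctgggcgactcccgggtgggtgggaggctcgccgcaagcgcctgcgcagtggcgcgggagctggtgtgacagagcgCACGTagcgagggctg
Egln3, chr12:54203875-54204124, minus strand: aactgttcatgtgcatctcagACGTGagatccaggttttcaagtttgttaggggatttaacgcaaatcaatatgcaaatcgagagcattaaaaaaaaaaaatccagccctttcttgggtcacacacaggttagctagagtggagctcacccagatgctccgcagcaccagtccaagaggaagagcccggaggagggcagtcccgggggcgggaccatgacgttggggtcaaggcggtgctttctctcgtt
Slc16a1, chr3:104638414-104638663, plus strand: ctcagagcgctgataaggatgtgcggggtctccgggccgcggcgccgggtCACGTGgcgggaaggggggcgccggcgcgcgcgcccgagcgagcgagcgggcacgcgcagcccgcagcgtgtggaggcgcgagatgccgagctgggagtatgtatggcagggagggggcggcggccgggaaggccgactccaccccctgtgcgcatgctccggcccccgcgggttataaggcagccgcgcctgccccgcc
The match lies close to the start in P4ha1 and far upstream in Egln3, and in Slc16a1 it is the E-box, where both strands read ACGTG. A match is a description of these letters and not of a bound site.

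**Figure D1:**
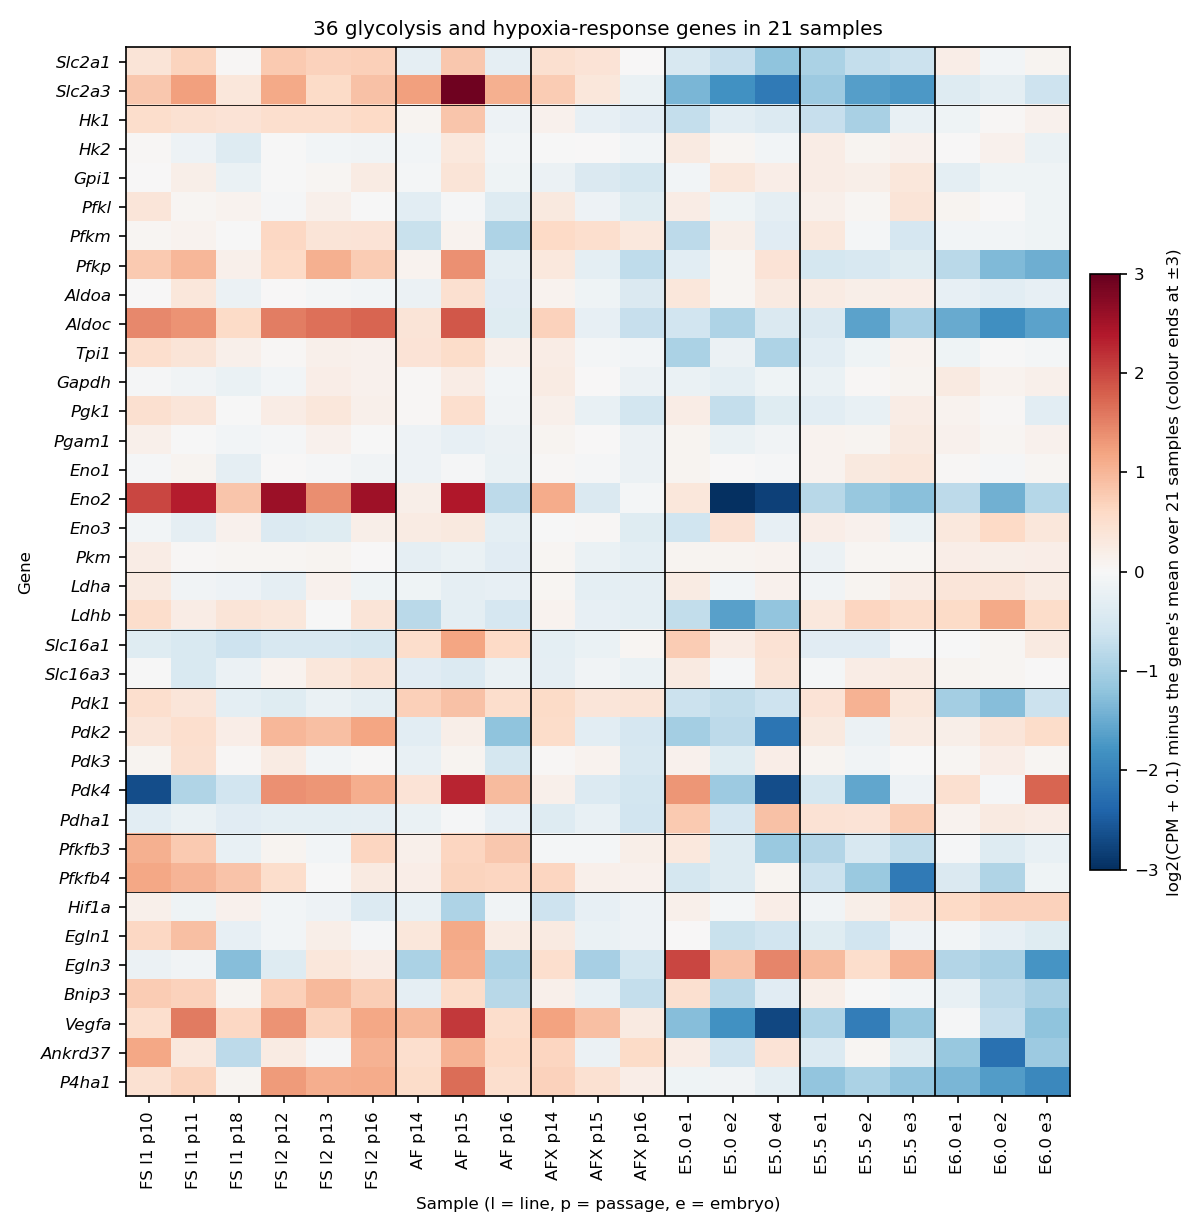
Level of each of the 36 genes (rows, by role) in each of the 21 samples (columns), as log2(CPM + 0.1) minus the gene's mean over all samples, with the colour scale ending at -3 and 3. The glucose transporters, Aldoc, Eno2, Vegfa and P4ha1 are above their means in most cultured samples and below them in most epiblasts, and AF passage 15 lies above the other AF passages for most genes.

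Cultured cells were compared with epiblasts over all 21 samples, as the mean of FS, AF and AFX against the mean of the 3 stages. Both glucose transporters, the minor isozymes Aldoc, Eno2, Hk1 and Pfkp, the regulators Pfkfb3 and Pfkfb4, and Vegfa, P4ha1, Ankrd37 and Egln1 were higher in culture, while the HIF-responsive Bnip3 and Egln3 did not pass. The most abundant enzymes differed by less: Pkm, Ldha and Eno1 were slightly lower in culture. Of 36 genes, 14 were higher and 7 lower (two-sided quasi-likelihood test of edgeR, with p-values adjusted by Benjamini-Hochberg over 16614 genes and called under 0.05), which is 58.3% against 61.8% of all genes tested. By direction, 33.9% of all genes were higher and 27.9% lower in culture, so the share of called genes in the set lies near that background. The median log2 fold change was 0.23 over the 36 genes and 0.09 over all genes. Without the E5.0 stage, where the visceral endoderm marker sum was highest, 14 were higher and 8 lower (59.2% of all genes tested were called), and the 21 calls remained.

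Of the 2 glucose transporters, Slc2a3, the high-affinity form (ENSMUSG00000003153, chr6:122727809-122801640), had the larger difference. It ran from 260.0 through a median of 539.7 to 2256 CPM in the 12 cultured samples and from 68.8 through 115 to 244 CPM in the 9 epiblasts. The ranges did not overlap, and the log2 fold change was 2.28 ± 0.237 (SE, adjusted p 4.42e-07, edgeR). Slc2a1, the widely expressed transporter, ran from 294 through 486 to 628 CPM in culture and from 156 through 227 to 410 CPM in epiblasts, where the E6.0 samples overlapped the lowest cultured ones (0.84 ± 0.14, adjusted p 3.94e-05).

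Within glycolysis, several isozymes that are minor in these cells had larger differences than the major ones. Aldoc, the brain-type aldolase, was at 9.16 to 54.6 CPM in culture and 4.07 to 11.1 in epiblasts, with a log2 fold change of 1.89 ± 0.266 (adjusted p 5.75e-06, edgeR). Aldoa, the main aldolase, had -0.09 without passing, and -0.18 without AF passage 15 (adjusted p 0.0343). Eno2, the neuronal enolase, was at 2.23 to 23.7 CPM in culture and 0 to 4.97 in epiblasts (2.30 ± 0.495, adjusted p 0.000602). That value rests partly on E5.0 embryo 1, which held the 4.97 CPM: without it the log2 fold change was 3.18. Pfkp, the platelet-type phosphofructokinase, was higher by 0.91 ± 0.201 (adjusted p 0.000772), while Pfkl and Pfkm had -0.11 and 0.25 and did not pass. Pfkm passed, at 0.32 to 0.33, without AF passage 16, E5.0 embryo 2 or E5.5 embryo 1. Hk1 was higher by 0.58 ± 0.122 (adjusted p 0.000282), and Hk2 had -0.10 without passing. Gapdh had 0.05 without passing (adjusted p 0.558), and its direction turned with its copies added (-0.034) and without the E5.0 stage (-0.091). Tpi1, triose phosphate isomerase, was higher by 0.49 ± 0.0951 (adjusted p 0.00012). At the end of the pathway, Pkm (-0.20 ± 0.0499, adjusted p 0.00171), Eno1 (-0.17 ± 0.052, adjusted p 0.00598) and Ldha (-0.29 ± 0.0703, adjusted p 0.000946) were lower in culture by small amounts. Pgam1 at -0.13 passed narrowly (adjusted p 0.0391) and was lost in 21 of 30 alternatives.

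The enzymes around pyruvate split. Pdha1, the catalytic alpha subunit of pyruvate dehydrogenase, was lower in culture, at 95.5 to 139 CPM against 101 to 264 CPM in epiblasts (-0.69 ± 0.115, adjusted p 2.32e-05). Its epiblast range is wide because E5.0 embryo 2 had 101 CPM where the other 2 E5.0 embryos had 245 and 264. Pdha1, like Pdk3 and Pgk1, lies on the X chromosome, and the part of X dosage or sex in these levels was not tested. Pdk1, which inhibits that enzyme, was higher by 0.715 ± 0.123 (adjusted p 3.03e-05), although its E5.5 values reach the cultured range. The lactate exporter Slc16a3 was lower by 0.28 on the log2 scale (-0.28 ± 0.0932, adjusted p 0.0129), and Slc16a1 had -0.07 without passing.

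Among the hypoxia-response genes, Vegfa, the vascular growth factor (chr17:46016993-46032369), was among the genes with the largest log2 fold changes, with Eno2 and Slc2a3. It was at 50.5 to 184 CPM in culture with a median of 80.9, and at 6.24 to 41.0 CPM in epiblasts with a median of 18.3, without overlap (2.32 ± 0.27, adjusted p 1.3e-06). P4ha1 (chr10:59323296-59373304) was at 61.0 to 184 CPM in culture, median 87.7, and at 14.8 to 53.3 CPM in epiblasts, median 25.3, again without overlap (1.75 ± 0.172, adjusted p 5.61e-08). Ankrd37, an ankyrin-repeat protein encoded by a HIF target, was higher by 1.08 ± 0.251 (adjusted p 0.000738). The hydroxylase Egln1 was higher by 0.61 ± 0.154 (adjusted p 0.00191), whereas Bnip3 had 0.37 without passing (adjusted p 0.105), and Egln3 had -0.49 and did not pass (adjusted p 0.156), with epiblast values that spread from 7.35 to 102 CPM by stage. Bnip3 passed without AF passage 16 (0.46, adjusted p 0.0356) or E5.0 embryo 1 (0.50, adjusted p 0.019), and Egln3 without AF passage 15 (-0.83, adjusted p 0.00634). Without the E5.0 stage the direction of Egln3 turned, at 0.022, and so did that of Slc16a1, at 0.072. Hif1a itself was lower in culture, by 0.57 (-0.57 ± 0.098, adjusted p 3.05e-05).

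The regulators of phosphofructokinase, Pfkfb3 and Pfkfb4, make the sugar phosphate that activates the enzyme and were both higher, by 0.74 ± 0.179 (adjusted p 0.00141) and 1.195 ± 0.256 (adjusted p 0.000338). Pfkfb4 is at low counts, 2.32 to 5.37 CPM in culture, and was not called with a filter at a mean of 5 CPM. Of the 21 calls, 20 held when any 1 of the 21 samples was left out.

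**Figure D2:**
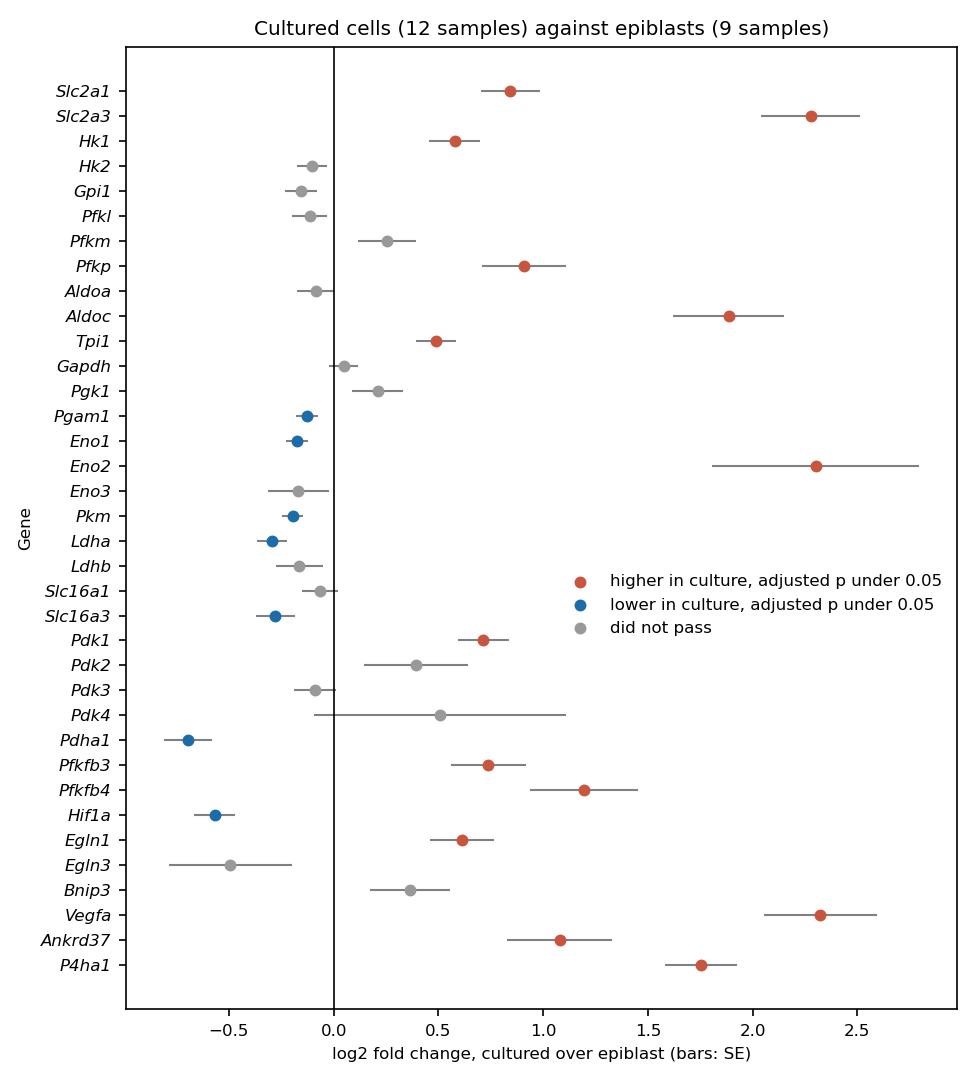
Log2 fold change of each of the 36 genes, mean of the 3 cultured groups over mean of the 3 epiblast stages, with bars of 1 SE. Red and blue points passed an adjusted p of 0.05 as higher (14) or lower (7) in culture, and grey points did not. Slc2a3, Eno2 and Vegfa lie above 2, and the abundant enzymes Pkm, Ldha and Eno1 lie just below 0.

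FS cells were also compared with E5.5 epiblasts. At an adjusted p under 0.05, 11 genes were higher and 3 lower in FS, 38.9% of the 36 against 43.8% of all genes tested (23% higher, 20.8% lower). The higher genes were largely those of the comparison above, which shares these samples: Eno2 (3.21 ± 0.833, adjusted p 0.0047), Aldoc (2.37 ± 0.437, adjusted p 0.000255), Vegfa (2.34 ± 0.442, adjusted p 0.000453), Slc2a3 (2.32 ± 0.392, adjusted p 0.000184) and P4ha1 (1.95 ± 0.283, adjusted p 2.11e-05, all edgeR), and for each of these 5 the FS and E5.5 samples did not overlap. Pdk1 was lower in FS than at E5.5 by 0.64 on the log2 scale (-0.64 ± 0.185, adjusted p 0.00779), and this call was lost without E5.5 embryo 2 or with FS line 1 alone. Pdk1 was also higher at E5.5 than at either other stage, as given below. Egln1 (0.63 ± 0.246, adjusted p 0.045) was lost in 10 of 18 alternatives. Marker sums also differed between FS and E5.5, at 6.46 to 13.8 against 42.6 to 83.5 CPM for visceral endoderm and 1847 to 2793 against 5013 to 5440 CPM for epiblast. Within these lists Rbp4, Ihh, Sox2 and Fgf5 averaged higher in FS. The part of these markers in the differences was not tested.

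Before the cultured groups are compared, the spread between passages matters. In the AF sample at passage 15, 14 of the 32 genes that averaged 10 CPM or more over cultured samples were at least 1.5-fold above the mean of the other AF passages, where 9.45% of 8703 genes were. Hif1a, at 0.592 of that mean, was 1.5-fold below it, where 11.5% of all genes were. The ratios were 6.30 for Eno2, 4.12 for Egln3, 3.52 for Aldoc, 3.38 for Slc2a3, 2.75 for Pfkp, 2.56 for Vegfa, 2.24 for P4ha1, 2.13 for Slc2a1 and 2.11 for Bnip3, the mitophagy receptor. Slc2a3 stood at 709, 2256 and 624.5 CPM at AF passages 14, 15 and 16. Ankrd37, under the level counted, was at 1.40 times and Ldhb at 1.28 times that mean. The library's total of 10960885 counts lies within the range of all samples, and its feeder marker sum of 261 CPM lies between those of the other AF passages. Its epiblast marker sum of 1133 CPM was the lowest of the 21 samples, against 1710 and 1621 CPM at AF passages 14 and 16, and the part of that in these ratios was not tested.

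Smaller shifts of the same kind were seen elsewhere. AFX passage 14 had 7 of 32 genes at least 1.5-fold above the other AFX passages (4.26% of all genes), with Slc2a3 at 511, 378 and 260.0 CPM at passages 14, 15 and 16. FS line 1 passage 18 had 9 of 32 at least 1.5-fold below the other passages of line 1 (3.55% of all genes), with a ratio of 0.385 for Eno2 and 0.449 for Egln3. E5.0 embryo 1 had 7 of 30 at least 1.5-fold above the other E5.0 epiblasts (7.23% of all genes), with Bnip3 at 2.07 times and Pfkfb3 at 2.04 times their mean.

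**Figure D3:**
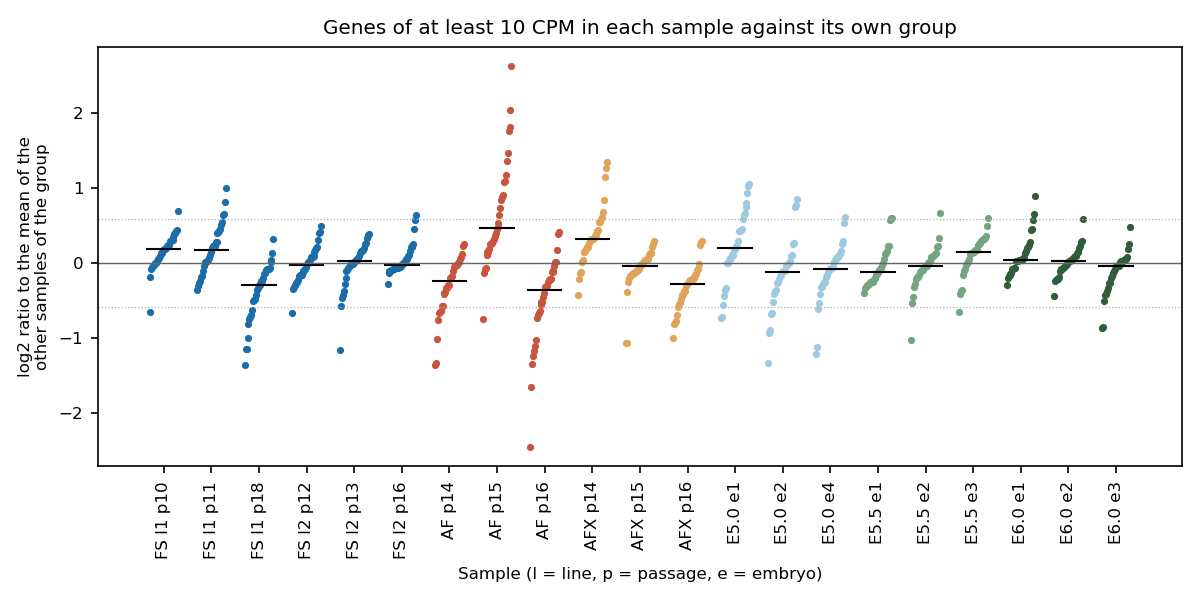
Each point is 1 gene of the set that averaged 10 CPM or more over cultured samples (or over epiblasts), as the log2 ratio of its CPM in a sample to the mean of the other samples of its group (its own line for FS). Black lines are medians and dotted lines mark 1.5-fold. AF passage 15 has the highest points and a median of 0.46, and the other 2 AF passages, compared with a mean that includes it, have medians of -0.25 and -0.37.

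FS cells were compared with AF cells over the 12 cultured samples. FS had less Slc16a1 and Pdk1 and more Ldhb, Pfkm, Pkm and Pdk2. These 6 calls (4 higher, 2 lower) are 16.7% of the 36 genes, against 19.5% of 16052 genes tested (8.86% higher, 10.6% lower), and the median log2 fold change was 0.07 against 0.02 over all genes. Slc16a1, which carries lactate and pyruvate across the plasma membrane, was at 179, 283 and 187 CPM at AF passages 14, 15 and 16. In the 6 FS samples it ran from 80.7 through a median of 89.2 to 96.4 CPM, all below every AF sample. The log2 fold change was -1.30 ± 0.131 (adjusted p 1.24e-05, edgeR), and -1.06 without AF passage 15. Ldhb, the lactate dehydrogenase subunit favoured in oxidative tissues, was at 25.8, 36.9 and 31.7 CPM in AF and from 44.6 through 58.0 to 65.0 CPM in FS, without overlap (0.82 ± 0.147, adjusted p 0.00121). Both calls held in all 18 alternatives.

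The other calls against AF were less stable. Pdk1 was at 86.1, 96.3 and 75.9 CPM in AF and 41.0 to 74.6 CPM in FS, where line 1 passages 10 and 11, at 74.6 and 67.3 CPM, came close to AF (-0.73 ± 0.185, adjusted p 0.0127). It was lost without AF passage 15 and with FS line 1 alone. Pkm, pyruvate kinase, was at 1928 to 2139 CPM in AF and 2475 to 2847 CPM in FS without overlap (0.33 ± 0.0902, adjusted p 0.0175), and was lost without AF passage 14, without AF passage 16 and with either FS line alone. Pfkm (0.69 ± 0.201, adjusted p 0.0265) was lost without FS line 2 passage 16, AF passage 14 or AF passage 16 and with FS line 1 alone. Pdk2 (1.10 ± 0.37, adjusted p 0.0488), at 1.30 to 7.18 CPM in these samples, was lost in 12 of 18 alternatives.

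Without AF passage 15 the count rose from 6 to 11, with 10 genes higher in FS and 1, Slc16a1, lower, while the share called over all genes went from 19.5% to 17.6%. That library was singled out because many of these same genes were high in it, so leaving it out lowers their AF level by construction. The added calls are a description and not a separate test. The genes added were Eno2 (2.35, adjusted p 0.0212, against 0.84 and adjusted p 0.411 with all samples), Aldoc (1.37, adjusted p 0.0383, against 0.48 and 0.508), Bnip3 (1.21, adjusted p 0.00933, against 0.75 and 0.0817), Slc2a1 (0.84, adjusted p 0.00682, against 0.38 and 0.304), Hk1 (0.52, adjusted p 0.0246, against 0.16 and 0.589, and -0.047 without AF passage 16) and Pfkl (0.46, adjusted p 0.048, against 0.35 and 0.095). Slc2a3 did not pass with all samples (-1.15 ± 0.38, adjusted p 0.0583), and its log2 fold change was -0.30 without that library. Feeder fibroblast, extraembryonic ectoderm and visceral endoderm marker sums were higher in all 3 AF samples than in any FS sample (visceral endoderm 21.1 to 29.1 against 6.46 to 13.8 CPM), and their part in these differences was not tested. Within these lists Thy1 and Ascl2 went the other way, with means of 2.14 and 1.16 CPM in AF and 5.51 and 2.51 in FS. So did Amn, Ihh, Elf5 and Esx1, at very low levels.

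**Figure D4:**
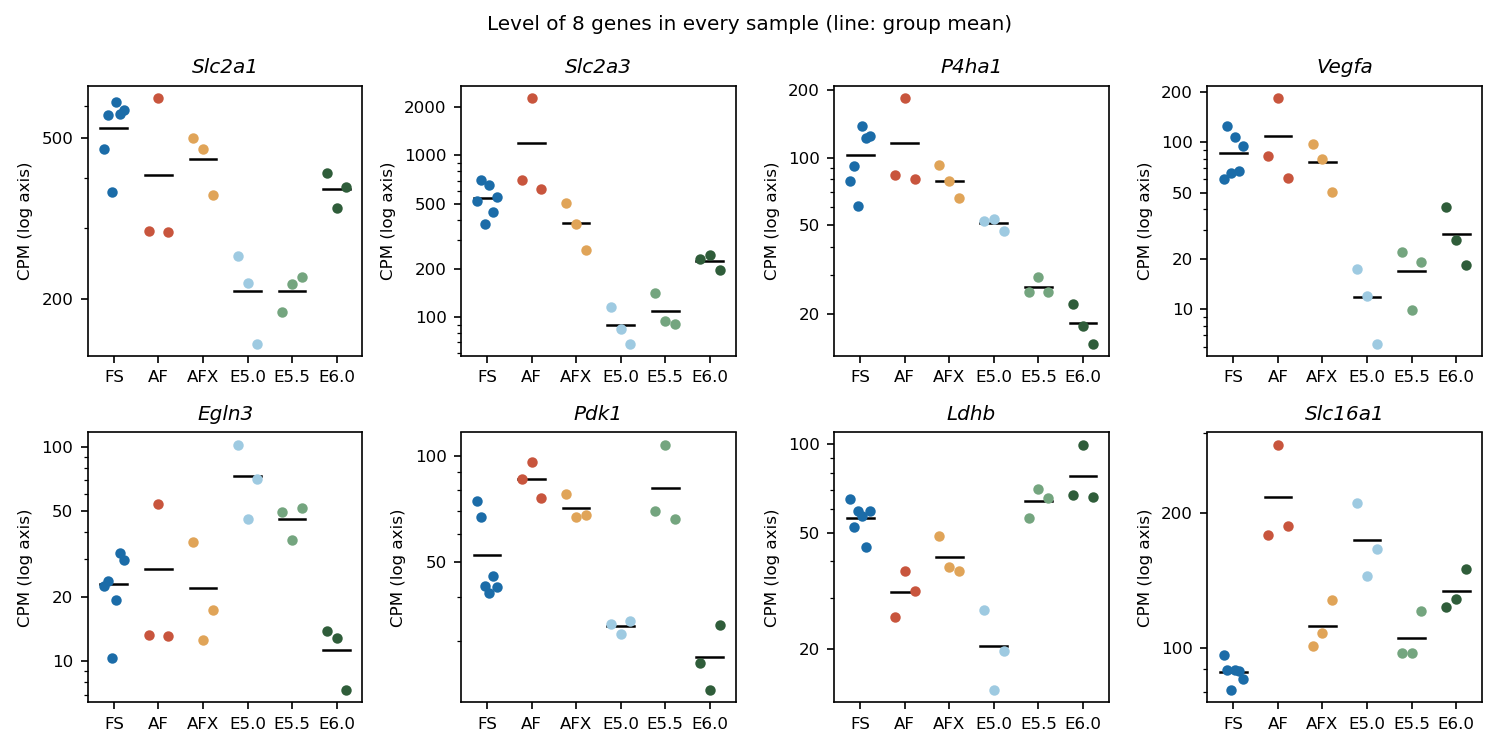
CPM (log axis) of 8 genes in every sample, grouped by FS, AF, AFX and the 3 epiblast stages, with group means as lines. The AF point at passage 15 is the highest of its group for all 8 genes, Slc16a1 in FS lies between 80.7 and 96.4 CPM, and Pdk1 peaks at E5.5 among the epiblasts.

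AFX cells, which share the AF samples' line but not their medium, had less Slc16a1 and more Pfkm than AF cells. The same 3 marker sums were higher in every AF than in every AFX sample (feeder fibroblast 225 to 271 against 32.0 to 56.2 CPM), and their part in this comparison was not tested either. Thy1 and Ascl2 again averaged lower in AF (2.14 and 1.16 CPM) than in AFX (10.7 and 2.27), as did Ttr and Ihh at very low levels. The calls of Slc16a1 and Pfkm are 5.56% of the 36 genes, against 8.73% of all genes tested (4.3% higher, 4.42% lower). Slc16a1 was at 101, 108 and 128 CPM in AFX at passages 14, 15 and 16, below all AF samples (-0.95 ± 0.158, adjusted p 0.00245, edgeR), and was called in every alternative run. Pfkm, the muscle-type phosphofructokinase, was at 79.0, 73.9 and 65.4 CPM in AFX and 33.1, 56.5 and 27.5 CPM in AF (0.89 ± 0.226, adjusted p 0.0241). That call was lost without AF passage 14 or 16, AFX passage 14 or 15, and with the 2 groups alone. Slc2a3 had -1.64 ± 0.465 without passing (adjusted p 0.0533), and -0.80 without AF passage 15. The median over the 36 genes was -0.22, with 24 below 0, against 0.01 over all genes. It rested on AF passage 15: without that library the median was 0.01 with 17 below 0, and 2 genes were again called, where 6.87% of all genes were.

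Against AFX, FS cells had 1 called gene, 2.78% of the 36 against 8.7% of all genes tested (3.78% higher, 4.92% lower). Hk1, at 33.4 to 38.1 CPM in FS and at 27.6, 21.2 and 20.1 CPM in AFX, was higher by 0.63 ± 0.186 (adjusted p 0.0493, edgeR), and the call was lost in 13 of 18 alternatives, including 8 of the 9 fits with a sample left out. The median over the 36 genes was 0.23, with 29 above 0, against 0.00 over all genes. Any 2 of these 3 comparisons share a group of samples, so their values are not independent of each other.

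Between the 2 FS lines, only Slc16a3, the exporter of lactate from glycolytic cells, was called (2.78% of the 36 against 3.85% of all genes tested, with 2.65% higher and 1.2% lower). It was at 213, 156 and 189 CPM at passages 10, 11 and 18 of line 1 and at 232, 271 and 299.8 CPM at passages 12, 13 and 16 of line 2, without overlap (0.51 ± 0.125, adjusted p 0.0357, edgeR). The call was lost without line 1 passage 11 or 18 and without line 2 passage 13 or 16. P4ha1 was at 78.7, 91.8 and 61.0 CPM in line 1 and 139, 123 and 125 CPM in line 2, which did not overlap, but at 0.72 ± 0.276 it did not pass (adjusted p 0.194). Pdk1 had -0.53 ± 0.17 (adjusted p 0.103) and passed without line 1 passage 18, at -0.74 with adjusted p 0.00796.

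From E5.0 to E6.0 the glucose transporters, Ldhb and Hif1a rose, while Egln3, P4ha1, Pfkp and Aldoa fell. Between E6.0 and E5.0, 7 of the 35 genes tested were higher and 6 lower, which is 37.1% against 21.8% of 14228 genes tested (10.2% higher and 11.6% lower), and Pdk4, at 0 to 2.02 CPM in epiblasts, did not enter the test. The count of 13 fell to 8 without E6.0 embryo 1, where the calls over all genes fell from 3100 to 2122. The visceral endoderm marker sum fell over the same stages, as given above, although Rbp4 rose from a mean of 0.486 to 1.19 CPM. The part of these markers in the changes was not tested.

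The transporters rose in the later step. Slc2a1 was at 256, 220 and 156 CPM at E5.0, at 186, 218 and 227 CPM at E5.5, and at 410, 337 and 379 CPM at E6.0. The E5.0 and E5.5 samples overlapped, and E6.0 lay above both. From E5.5 to E6.0 it rose by 0.83 ± 0.155 (adjusted p 0.00781, edgeR) and from E5.0 by 0.82 ± 0.155 (adjusted p 0.00213). Slc2a3 was at 115, 85.3 and 68.8 CPM, at 141, 95.6 and 91.3 CPM and at 229, 244 and 196 CPM at the same stages, a rise of 1.295 ± 0.205 from E5.0 to E6.0 (adjusted p 0.000921). Its rise from E5.5 (1.02 ± 0.202, adjusted p 0.0142) was lost without E5.5 embryo 2 or 3 or E6.0 embryo 1 or 2.

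Ldhb rose in the earlier step. It was at 27.2, 14.5 and 19.8 CPM at E5.0 and at 55.9, 70.2 and 65.4 CPM at E5.5, without overlap (1.61 ± 0.222, adjusted p 0.00141, edgeR). At E6.0 it was at 67.3, 99.5 and 66.1 CPM, which overlaps E5.5. Slc16a1 fell from 210, 145 and 166 CPM at E5.0 to 97.8, 97.8 and 121 CPM at E5.5 (-0.73 ± 0.143, adjusted p 0.00949), a call lost without E5.5 embryo 2.

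Pdk1 was high at E5.5 alone among the stages. It stood at 33.6, 31.4 and 34.1 CPM at E5.0, at 69.7, 108 and 66.3 CPM at E5.5, and at 25.9, 21.7 and 33.3 CPM at E6.0. The rise of 1.28 ± 0.209 to E5.5 (adjusted p 0.0032, edgeR) and the fall to E6.0 (-1.59 ± 0.21, adjusted p 0.000542) were called in every alternative. E5.5 against E5.0 had 4 calls among 35 genes (11.4% against 6.82% of all genes tested, with 3.07% higher and 3.75% lower), which were Ldhb, Pdk1, Slc16a1 and P4ha1. E6.0 against E5.5 had 7 (20% against 4.43% of all genes tested, with 1.89% higher and 2.54% lower), and 4 without E5.5 embryo 2, E6.0 embryo 1 or E6.0 embryo 2, where the calls over all genes fell from 631 to 308, 314 and 238.

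Of the 36 genes, Egln3 (chr12:54178981-54203860) had the largest fall from E5.0 to E6.0. It was at 102, 46.2 and 70.9 CPM at E5.0, at 49.5, 36.95 and 52.1 CPM at E5.5, and at 13.8, 12.9 and 7.35 CPM at E6.0. E5.0 and E5.5 overlapped and E6.0 lay below both, with -2.03 ± 0.298 from E5.5 (adjusted p 0.00207, edgeR) and -2.705 ± 0.303 from E5.0 (adjusted p 6.34e-05). P4ha1 was at 52.5, 53.3 and 47.1 CPM at E5.0, at 25.1, 29.5 and 25.3 CPM at E5.5, and at 22.2, 17.8 and 14.8 CPM at E6.0, and the 3 stages did not overlap. Its change was -0.95 ± 0.184 from E5.0 to E5.5 (adjusted p 0.00931) and -1.495 ± 0.188 from E5.0 to E6.0 (adjusted p 8.69e-05), while the later step alone, at -0.55, did not pass (adjusted p 0.12).

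Hif1a and Vegfa went the other way. Hif1a was at 185, 162 and 193 CPM at E5.0 and at 254, 269.95 and 269 CPM at E6.0 (0.54 ± 0.121, adjusted p 0.00616, edgeR). Its rise from E5.5 (0.48 ± 0.121, adjusted p 0.0369) was lost in 5 of the 6 fits with an embryo left out, all but that without E5.5 embryo 3. Vegfa was at 17.4, 11.99 and 6.24 CPM at E5.0 and at 41.0, 25.9 and 18.3 CPM at E6.0 (1.24 ± 0.411, adjusted p 0.049). That call was lost in 7 of 14 alternatives, among them the fits without E5.0 embryo 2 or 4 and without E6.0 embryo 1 or 2.

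Among glycolytic enzymes, Aldoa fell in a narrow band, from 1201, 1147 and 1175 CPM at E5.5 to 863, 821 and 856 CPM at E6.0 (-0.48 ± 0.0816, adjusted p 0.00442, edgeR). Pfkp fell from 41.2, 53.3 and 68.1 CPM at E5.0 to 29.1, 20.5 and 18.5 CPM at E6.0 (-1.28 ± 0.216, adjusted p 0.000901). Gapdh rose by 0.37 ± 0.0946 from E5.0 (adjusted p 0.0133), a call lost without E6.0 embryo 1, and its copies make it uncertain. Gpi1, glucose phosphate isomerase, fell by 0.36 from E5.0 (-0.36, adjusted p 0.0293) and by 0.43 from E5.5 (-0.43, adjusted p 0.0381), and with an embryo left out these calls were lost in 5 of 6 and 6 of 6 fits. Pdk2 (1.66, adjusted p 0.0443) and Ankrd37 (-1.56, adjusted p 0.0476) passed narrowly between E6.0 and E5.0 at under 6 CPM, and each was lost in 9 of 14 alternatives. Eno1, Pkm, Ldha, Hk2 and Pgk1 did not pass in any comparison of stages.

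Shares within pairs of isozymes, computed from counts per kilobase of annotated exon, show which form dominates. These are descriptions without a test, and they depend on the gene lengths: with the longest transcript in place of all exons, Ldhb at E5.0 made up 2.16% in place of 3.24%, and Hk1 in FS 14.97% of the hexokinase pair in place of 8.73%. Slc2a3 made up 56.0% ± 6.7 (SD, n = 3) of the 2 transporters in AF, 33.1% ± 3.44 (n = 6) in FS and 28.9% ± 3.76 (n = 3) in AFX. It made up 17.1% ± 1.14 at E5.0 and 22.4% ± 3.12 at E6.0 (n = 3 each), so AF was the group in which it was the larger part. Slc16a1 likewise made up 59.5% ± 7.19 of Slc16a1 and Slc16a3 in AF, against 32.6% ± 5.43 in FS and 41.6% ± 3.0 in AFX. Egln3 made up 64.5% ± 4.57 of Egln1 and Egln3 at E5.0, 53.8% ± 1.79 at E5.5 and 20.6% ± 4.06 at E6.0. Ldhb rose from 3.24% ± 0.638 of the lactate dehydrogenase pair at E5.0 to 9.77% ± 0.745 at E5.5. In other families a single form held nearly all of the count, with Hk2 at 91.3% to 96.4%, Aldoa at 96.6% to 99.5% and Eno1 at 96.4% to 97.9% as group means. Their minor forms still varied, Aldoc from 0.488% at E6.0 to 3.40% in FS and Eno2 from 0.122% at E5.5 to 1.35% in FS. Of the pyruvate dehydrogenase kinases, Pdk3, the X-linked one, was the largest part in every group, 53.4% in AF to 77.55% at E6.0, and Pdk1 ranged from 15.4% at E6.0 to 42.2% in AF. With the longest transcript, Pdk3 and Pdk1 in AF were nearly level at 48.4% and 47.4%.

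**Figure D5:**
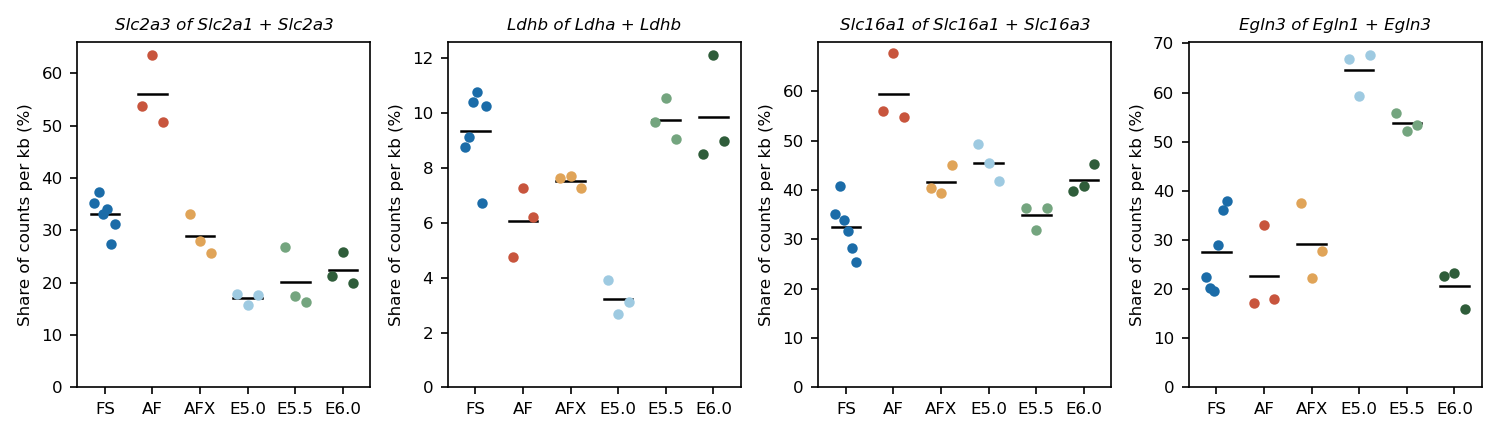
Share (%) of counts per kilobase of exon taken by Slc2a3, Ldhb, Slc16a1 and Egln3 within its pair, 1 point per sample, with group means as lines. Slc2a3 and Slc16a1 exceed 50% only in AF samples, and Egln3 exceeds 50% only at E5.0 and E5.5.

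A further 79 genes of glycolysis, pyruvate oxidation, gluconeogenesis, the pentose phosphate pathway, HIF regulation and the hypoxia response were looked up in the same fits. In culture against epiblasts, 33 of 72 tested were higher (45.8%, against 33.9% of all genes) and 17 lower (23.6%, against 27.9%), and of the 27 hypoxia-response genes among them 18 were higher and 3 lower. Without the E5.0 stage 31 of 67 were higher (46.3%, against 30.8% of all genes) and 11 lower (16.4%, against 28.5%). Txnip, which restrains glucose uptake, ran from 47.0 to 199 CPM in culture and from 1.60 to 9.57 in epiblasts (4.84 ± 0.318, adjusted p 1.47e-09, edgeR). Ddit4, an inhibitor of mTOR signalling, was higher by 2.83 ± 0.34 (adjusted p 2.09e-06) and Ndrg1 by 2.35 ± 0.366 (adjusted p 3.11e-05). Angptl4 (-2.08 ± 0.303, adjusted p 4.11e-06) and Pdhb (-0.64 ± 0.118, adjusted p 6e-05) were lower. Epas1 also passed as lower (-1.10 ± 0.275, adjusted p 0.00151), but only with E5.0, where it averaged 49.1 CPM against 3.87 at E5.5, 2.01 at E6.0 and 3.44 in culture, and without that stage it had 0.24 (adjusted p 0.559). FS against E5.5 gave 27 higher and 15 lower of 72, where 23% and 20.8% of all genes were.

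From E5.0 to E6.0, 8 of 64 of these genes rose and 11 fell, where 10.2% and 11.6% of all genes did. Epas1, the other widely studied HIF alpha subunit, was at 28.6, 65.4 and 53.3 CPM at E5.0 and at 2.50, 2.25 and 1.28 CPM at E6.0 (-4.62 ± 0.415, adjusted p 6.91e-06, edgeR), while Hif1a rose. The visceral endoderm markers in the same E5.0 embryos summed to 730, 905 and 302 CPM, and their part in the Epas1 difference was not tested. Ndrg1 fell (-3.48 ± 0.664, adjusted p 0.00356), with 47.2 CPM in E5.0 embryo 2 and 10.6 and 12.1 CPM in the other E5.0 embryos. Pck2, the mitochondrial phosphoenolpyruvate carboxykinase, rose from 10.3, 2.95 and 6.36 CPM to 64.4, 44.1 and 37.3 CPM (2.84 ± 0.37, adjusted p 0.00023), and Pgm2 (2.24 ± 0.27, adjusted p 6.36e-05) and Bpgm (1.08 ± 0.267, adjusted p 0.0107) also rose. E5.5 against E5.0 gave 4 higher and 6 lower of 64, where 3.07% and 3.75% of all genes were. E6.0 against E5.5 gave 0 in either direction with edgeR, where 8 were higher and 11 lower at an unadjusted p under 0.05 and DESeq2 called 1 higher.

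Among cultured groups, FS against AF gave 5 higher and 11 lower of 66 (7.58% and 16.7%, against 8.86% and 10.6% of all genes), and 5 and 7 without AF passage 15 (7.58% and 10.6%, against 8.26% and 9.33%). Arnt, the partner subunit of HIF, was at 72.6 to 102 CPM in FS and 53.1 to 64.8 in AF (0.57 ± 0.124, adjusted p 0.00457, edgeR). Hif3a (-1.62 ± 0.236, adjusted p 0.000314), Cited2 (-1.31 ± 0.223, adjusted p 0.00084) and Bhlhe40 (-1.87 ± 0.418, adjusted p 0.00864), all known HIF targets or regulators, were lower in FS. Bhlhe40 was at 43.2, 111.8 and 41.6 CPM at AF passages 14, 15 and 16, and without passage 15 it no longer passed (-1.24, adjusted p 0.0638). Hif3a was at 49.5, 94.2 and 33.2 CPM and had -1.10 without it (adjusted p 0.000699), and Cited2 had -1.32 (adjusted p 0.00311). Called genes that fell further than Cited2 but lay under 10 CPM on average in both groups, named here after their values were seen, were Hkdc1 (1.85 to 3.72 CPM in AF and 0 in every FS sample), Angptl4 (2.73 to 5.02 and 0.199 to 2.22), Lox, a collagen cross-linking enzyme (2.73 to 5.11 CPM in AF and 0 to 0.171 in FS), Mpc1, a mitochondrial pyruvate carrier subunit (2.47 to 6.88 and 0.845 to 1.39), and Adm (3.21 to 19.99 and 1.13 to 3.19). Adm no longer passed without AF passage 15 (-0.68, adjusted p 0.43). FS against AFX had 7 higher, where 3.78% of all genes were, and 0 lower of 66 with edgeR (8 lower at an unadjusted p under 0.05, and 1 lower by DESeq2), with Gbe1, the glycogen branching enzyme, at 1.18 ± 0.302 (adjusted p 0.0241). AFX against AF had 6 lower of 66, where 4.42% of all genes were, and 4 without AF passage 15, where 3.28% were. The FS lines had 3 higher of 66, where 2.65% of all genes were, with the glucose transporter Slc2a12 at 12.7 ± 2.2 CPM in line 2 and 1.95 ± 0.504 in line 1 (SD, n = 3 each; 2.70 ± 0.429, adjusted p 0.00188).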

How the data were processed

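RNA from 21 mouse samples was sequenced, and the authors deposited raw read counts per gene. Per the submitters' processing notes, reads were trimmed with Trim Galore, aligned with TopHat2 2.1.0 to mm10 and counted with featureCounts 1.5.0. The annotation release and the strand option are not given in the sources used here. Samples were grouped by their labels. Counts were tested with edgeR 4.0.16 (quasi-likelihood, robust, TMM scaling, filterByExpr, Benjamini-Hochberg over all genes tested, adjusted p under 0.05, two-sided). Comparisons among cultured groups used the 12 cultured samples, those among stages the 9 epiblasts, and those across both all 21. Printed CPM are counts relative to the TMM-scaled library total, and SE is that of the log2 fold change, from the F statistic. The procedure was tested on simulated data. Alternatives were DESeq2 1.42.0 (its size factors, then its Wald test), all genes unfiltered, a stricter filter at 5 CPM on average, removal of ribosomal RNA loci, the compared groups alone, each FS line alone, each sample left out, the replicate number as a block and, chosen after seeing the data, counts of near-identical copies added and the E5.0 stage left out.

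The members and lists were chosen with earlier results of these data known. Values in every sample are given for up to 6 called members per comparison with the largest log2 fold change and 10 CPM or more in the higher of the groups, and for up to 4 uncalled members of the same step, and up to 3 rising and 3 falling called genes of the wider pathway list are named, by the largest log2 fold change at 10 CPM or more in the higher group. Further genes are named with values where a call depends on 1 library.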

Additional observations from a re-analysis of the deposited data

Results flagged for a closer look

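Among the 36 genes in the 6 FS samples, 2 values lay far from the rest by Dixon's gap test, which chance meets in about 1 in 20 groups. Aldoa was at 1279 CPM in FS line 1 passage 11, where the nearest sample had 1025 CPM and the lowest 898.5 CPM. Pkm was at 2847 CPM in FS line 1 passage 10, where the nearest sample had 2607 CPM and the lowest 2475 CPM.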

How the results depend on the processing

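Calls across culture and epiblast were the most stable: 19 of 21 held in every alternative, as did 11 of 14 for FS against E5.5, 8 of 13 for E6.0 against E5.0, 4 of 7 for E6.0 against E5.5, 3 of 4 for E5.5 against E5.0, 2 of 6 for FS against AF, 1 of 2 for AFX against AF, and 0 for FS against AFX and for the FS lines. For cultured cells, the alternatives that leave samples out keep passages as replicates, so they do not test replication over lines. With 1 sample left out, the count of called genes ran from 20 to 23 for culture against epiblast, 12 to 14 for FS against E5.5, 8 to 15 for E6.0 against E5.0, 4 to 5 for E6.0 against E5.5, 3 to 6 for E5.5 against E5.0, 4 to 11 for FS against AF, 0 to 3 for FS against AFX, 1 to 2 for AFX against AF and 0 to 1 for the FS lines. Calls over all genes moved too. In the same order they ran from 9981 to 10625, 6096 to 7019, 1905 to 3362, 238 to 372, 371 to 1260, 2263 to 3386, 820 to 1485, 732 to 1129 and 316 to 478. FS against AF gave 2 with FS line 1 alone, where calls over all genes went from 3126 to 2172. FS against AFX gave 0 with DESeq2 size factors, at a mean of 5 CPM, without ribosomal RNA loci or with FS line 1 alone, 2 with FS line 2 alone, 5 with the 2 groups alone and 6 with the DESeq2 Wald test. In that order, calls over all genes were 1389, 1023, 1398, 1072, 1930, 1433 and 1980, against 1397 in the main fit. AFX against AF gave 4 with the Wald test and 1 with the 2 groups alone, where calls over all genes went from 1401 to 1963 and 1175. The FS lines gave 2 with the Wald test, 5 with no filter and 4 with the 2 groups alone, where calls over all genes went from 618 to 1099, 1298 and 1045. Of the values given in the text for the 36 genes, the direction turned for Hk1 in FS against AF without AF passage 16 (-0.047, against 0.52 without AF passage 15), for Gapdh in culture against epiblast with copies added (-0.034) or without the E5.0 stage (-0.091), and without that stage also for Slc16a1 (0.072) and Egln3 (0.022). Of the wider pathway list, the called value of Epas1 in culture against epiblast also turned without that stage, as given above. Over all 36 genes the sign changed without AF passage 15 for 6 between FS and AF and for 9 between the 2 E14 media, and for 4 in culture against epiblast without E5.0, of which 0 were called with all samples. Apart from the fewer samples in some fits, the cause was not tested. In their deviations from the group means, same-numbered AF and AFX samples correlated at -0.12, -0.093 and 0.20, and different-numbered ones at -0.26 to 0.30. With so few samples per group, these values cannot decide whether the numbers pair the samples. With the replicate block the called genes were 4 for E5.5 against E5.0, 7 for E6.0 against E5.5 and 10 for E6.0 against E5.0, while calls over all genes went from 971 to 421, from 631 to 707 and from 3100 to 2251. For AFX against AF the block was fitted on those 2 groups alone. It gave 2 called genes where the 2 groups without a block gave 1, and calls over all genes were 907 with the block and 1175 without it. No paired analysis was possible because the groups of the other comparisons share fewer than 2 numbers. Genes at a few CPM, such as Pdk2, Pdk4, Pfkfb4 and Ankrd37, are limited by depth.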
